A study of Rattus norvegicus with 14 samples.

Results

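A set of 5 genes that encode or serve receptors for pituitary and related hormones on Leydig cells was followed across a dose series of dicyclohexyl phthalate (DCHP) in the fetal rat testis. They are Lhcgr, Prlr, Mc2r, Mrap and Crhr1, taken by symbol from the table of estimated counts, and all 5 are present among its 18174 genes. Pregnant Harlan Sprague Dawley dams received corn oil (the vehicle) or DCHP, a phthalate diester used to soften plastics, by oral gavage from gestational day 14 to 18. Doses were 100, 300, 600 and 900 mg/kg/day. Fetal testes were taken on gestational day 18. From each litter 3 testes went to testosterone measurement while the remaining ones were pooled, so that 1 library stands for 1 litter. A library mixes the cell types of the testis, and which cells carried these transcripts was not tested. There were 3 litters each in the vehicle, 100, 300 and 600 mg/kg/day groups and 2 at 900 mg/kg/day, 14 in all, and every group shared the same strain, sex, age and dosing route.

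Leydig cells make testosterone when luteinising hormone or chorionic gonadotropin binds the LH receptor, a Gs-coupled receptor whose cAMP signal activates protein kinase A and turns on cholesterol transport and steroid synthesis. In the mouse the fetal Leydig cell is also known to answer adrenocorticotropic hormone, through the melanocortin 2 receptor, which reaches the cell surface only with its accessory protein MRAP. Prolactin acts through a cytokine receptor that works by JAK and STAT proteins, and corticotropin-releasing hormone through a further Gs-coupled receptor.

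Expression was measured by TempO-Seq, a probe assay that reads out each of 21119 targeted genes by sequencing detector oligos joined where they lie side by side on the RNA. Libraries held 5558873 to 11272861 estimated counts. Levels are given as CPM on the TMM-scaled library size. Probes differ between genes, so levels of different genes are not compared. Of the 5 genes, 4 passed edgeR's filter on low counts, and Mc2r did not. The first principal component of the tested genes held 36.1% of the variance. On it vehicle replicate 1 (-42.6) and the first replicate at 100 mg/kg/day (-65.1) lay apart from the other libraries of their groups, toward the 900 mg/kg/day libraries (-38.2 and -22.8). Values are therefore also given without those 2 libraries. They were picked from the data for lying toward the 900 mg/kg/day litters. Leaving them out therefore favours a difference between vehicle and dose over the tested genes as a whole. For a single gene the estimate can become smaller in size, as it did for Prlr at 600 and 900 mg/kg/day. The adjusted p of Prlr in edgeR became smaller there all the same, because the standard error fell. The values without them are descriptions that support no call. The p-values set a difference between groups, or a slope over dose, against the spread between litters.

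The upstream sequences of Lhcgr and Prlr are shown as a description. The litter patterns of these receptor genes differed, as described further on, and a link between sequence and pattern was not tested. Each run is the 250 bases before an annotated start, from RefSeq on build GRCr8, plus strand, 5′ to 3′. Of the 5 genes 4 matched the promoter table, with 6 windows in all, and Mrap had no entry. Capitals mark AGGTCA, the core motif of nuclear receptors, and GGGCGG, the GC box, searched on both strands together with TGACGTCA, the cAMP response element. No match overlapped another.
Lhcgr (chr6:11415165-11415414): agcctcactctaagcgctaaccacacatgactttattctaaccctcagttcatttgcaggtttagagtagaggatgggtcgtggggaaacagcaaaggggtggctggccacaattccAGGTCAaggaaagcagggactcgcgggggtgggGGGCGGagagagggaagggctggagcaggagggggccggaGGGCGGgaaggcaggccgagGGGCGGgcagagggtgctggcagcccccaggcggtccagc
Prlr start 1 (chr2:60861515-60861764): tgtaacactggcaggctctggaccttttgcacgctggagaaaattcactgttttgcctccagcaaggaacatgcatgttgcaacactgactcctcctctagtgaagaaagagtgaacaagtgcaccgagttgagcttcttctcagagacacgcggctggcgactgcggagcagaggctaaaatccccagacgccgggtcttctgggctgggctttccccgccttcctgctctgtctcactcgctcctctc
Prlr start 2 (chr2:60909409-60909658): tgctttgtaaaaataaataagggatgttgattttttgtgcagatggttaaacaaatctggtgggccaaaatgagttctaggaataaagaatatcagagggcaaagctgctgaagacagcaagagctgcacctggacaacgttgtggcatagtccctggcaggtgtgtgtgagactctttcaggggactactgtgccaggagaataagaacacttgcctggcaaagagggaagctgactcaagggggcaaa

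The Lhcgr window held 1 AGGTCA, whose first base is at -133 from the start, and 3 GGGCGG, at -100, -60 and -40, all on the plus strand. Neither Prlr window held any of the 3 motifs. Across 33469 rat promoter windows of the same length, 14.1% held AGGTCA, 30.5% held GGGCGG and 7.41% held 3 or more GGGCGG. The cAMP response element was in 1.59% of them and in none of the 6 windows of these genes. Both Crhr1 windows held 1 GGGCGG, and the Mc2r window held no match. These matches are letters in a window and say nothing of a factor's binding.

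Lhcgr encodes the receptor for luteinising hormone and chorionic gonadotropin (ENSRNOG00000016712, rn7 chr6:5661871-5724522, plus strand, protein coding). The counts were low, 8 to 43 per library and 267 in all. The 3 vehicle litters had 28, 33 and 43 counts, or 2.78, 3.29 and 4.92 CPM. At 100 mg/kg/day the litters had 8, 28 and 14 counts (1.05, 3.56 and 1.43 CPM), and at 300 mg/kg/day 27, 15 and 12 counts (2.90, 1.84 and 1.80 CPM). The higher doses gave 13, 14 and 8 counts (1.63, 2.18 and 1.48 CPM) at 600 mg/kg/day and 9 and 15 counts (1.08 and 1.29 CPM) at 900 mg/kg/day. Every litter at 600 and 900 mg/kg/day lay below every vehicle litter, while at 100 and at 300 mg/kg/day 1 litter lay within the vehicle range.

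The Lhcgr mean was 3.66 ± 1.12 CPM in vehicle (SD, n = 3) and 1.19 ± 0.14 CPM at 900 mg/kg/day (n = 2), 32.4% of the vehicle level. The means in between were 2.01 ± 1.35, 2.18 ± 0.62 and 1.76 ± 0.37 CPM at 100, 300 and 600 mg/kg/day (n = 3 each). In descending order the groups ran vehicle, 300, 100, 600 and 900 mg/kg/day, and of the neighbours in that order only 600 and 900 mg/kg/day had ranges that did not overlap. The summed counts gave 3.60 CPM in vehicle (exact Poisson 95% interval 2.94 to 4.37) and 1.20 CPM at 900 mg/kg/day (0.771 to 1.79). These intervals cover counting error only.

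Prlr encodes the prolactin receptor (ENSRNOG00000057557, rn7 chr2:59134588-59324719, plus strand, protein coding), and its counts ran from 52 to 409 per library. The vehicle litters had 409, 244 and 218 counts, or 40.6, 24.3 and 24.9 CPM. At 100 mg/kg/day the values were 32.5, 16 and 10.4 CPM, and at 300 mg/kg/day 15.9, 15.6 and 14.1 CPM. They were 7.88, 14.6 and 9.62 CPM at 600 mg/kg/day and 12.4 and 11.3 CPM at 900 mg/kg/day. From 300 mg/kg/day upward no dosed litter reached the vehicle range, whereas 100 mg/kg/day replicate 1 lay inside it.

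The Prlr mean was 29.9 ± 9.25 CPM in vehicle, 19.6 ± 11.5, 15.2 ± 0.96 and 10.7 ± 3.50 CPM at 100, 300 and 600 mg/kg/day (SD, n = 3 each), and 11.8 ± 0.82 CPM at 900 mg/kg/day (n = 2). The 600 and 900 mg/kg/day means were 35.7% and 39.5% of vehicle, and their ranges overlapped. Among neighbours in the descending order (vehicle, 100, 300, 900, 600 mg/kg/day) only 300 and 900 mg/kg/day had ranges that did not overlap.

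Mc2r encodes the receptor for adrenocorticotropic hormone (ENSRNOG00000016681, rn7 chr18:62004948-62015489, minus strand, protein coding). It had 1 to 9 counts per library and 66 in all. The vehicle litters had 2, 2 and 5 counts. There were 1, 5 and 4 counts at 100, 7, 6 and 2 at 300, 7, 5 and 5 at 600, and 9 and 6 at 900 mg/kg/day. In CPM the 600 mg/kg/day litters (0.875, 0.777 and 0.925) lay above every vehicle litter (0.199, 0.199 and 0.572), and 1 of the 2 litters at 900 mg/kg/day (1.08 and 0.515) did. The Mc2r means were 0.323 ± 0.215, 0.391 ± 0.253, 0.596 ± 0.257 and 0.859 ± 0.075 CPM from vehicle to 600 mg/kg/day (SD, n = 3 each) and 0.800 ± 0.402 CPM at 900 mg/kg/day (n = 2). The groups of neighbouring level all overlapped. The Poisson interval of the summed counts was 0.143 to 0.592 CPM in vehicle and 0.499 to 1.37 CPM at 600 mg/kg/day, and these intervals overlapped.

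Mrap encodes the accessory protein that carries the Mc2r product to the cell surface (ENSRNOG00000021524, rn7 chr11:29992034-30003025, plus strand, protein coding). The vehicle litters had 17, 46 and 25 counts, or 1.69, 4.58 and 2.86 CPM. At 100 mg/kg/day the counts were 5, 21 and 13 (0.653, 2.67 and 1.33 CPM), and at 300 mg/kg/day 13, 10 and 12 (1.40, 1.23 and 1.80 CPM). They were 7, 10 and 2 (0.875, 1.56 and 0.370 CPM) at 600 mg/kg/day and 4 and 6 (0.482 and 0.515 CPM) at 900 mg/kg/day. Every litter at 600 and 900 mg/kg/day was again below every vehicle litter, and at 100 and at 300 mg/kg/day 1 litter was within the vehicle range.

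The Mrap mean was 3.04 ± 1.45 CPM in vehicle and 1.55 ± 1.03, 1.48 ± 0.29 and 0.933 ± 0.595 CPM at 100, 300 and 600 mg/kg/day (SD, n = 3 each). It was 0.499 ± 0.024 CPM at 900 mg/kg/day (n = 2), or 16.4% of vehicle, where the 10 counts of both litters gave an exact Poisson interval of 0.240 to 0.922 CPM. The means followed the order of dose, but the ranges of every pair of neighbouring groups overlapped. Mrap and Mc2r, whose products work as a complex, had means in opposite order at the ends of the dose range, with Mc2r at single-digit counts.

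Crhr1 encodes the type 1 receptor for corticotropin-releasing hormone (ENSRNOG00000004900, rn7 chr10:89040203-89083482, plus strand, protein coding), with 174 to 535 counts per library. The vehicle litters were close together at 47.3, 46.8 and 56.4 CPM. The 100 mg/kg/day litters had 33.1, 30.6 and 39.1 CPM, and the 300 mg/kg/day litters 57.5, 37.5 and 35.6 CPM. At 600 mg/kg/day the values were 38.9, 29.7 and 32.2 CPM, and at 900 mg/kg/day 25.4 and 37.8 CPM. All litters of 100, 600 and 900 mg/kg/day lay below every vehicle litter, and the highest value of all 14 was 300 mg/kg/day replicate 1.

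The Crhr1 means were 50.1 ± 5.39 CPM in vehicle, 34.2 ± 4.35, 43.5 ± 12.15 and 33.6 ± 4.75 CPM at 100, 300 and 600 mg/kg/day (SD, n = 3 each) and 31.6 ± 8.75 CPM at 900 mg/kg/day (n = 2). The 900 mg/kg/day level was 63.0% of vehicle. Neighbouring groups in the order of means (vehicle, 300, 100, 600, 900 mg/kg/day) all overlapped.

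**Figure D1:**
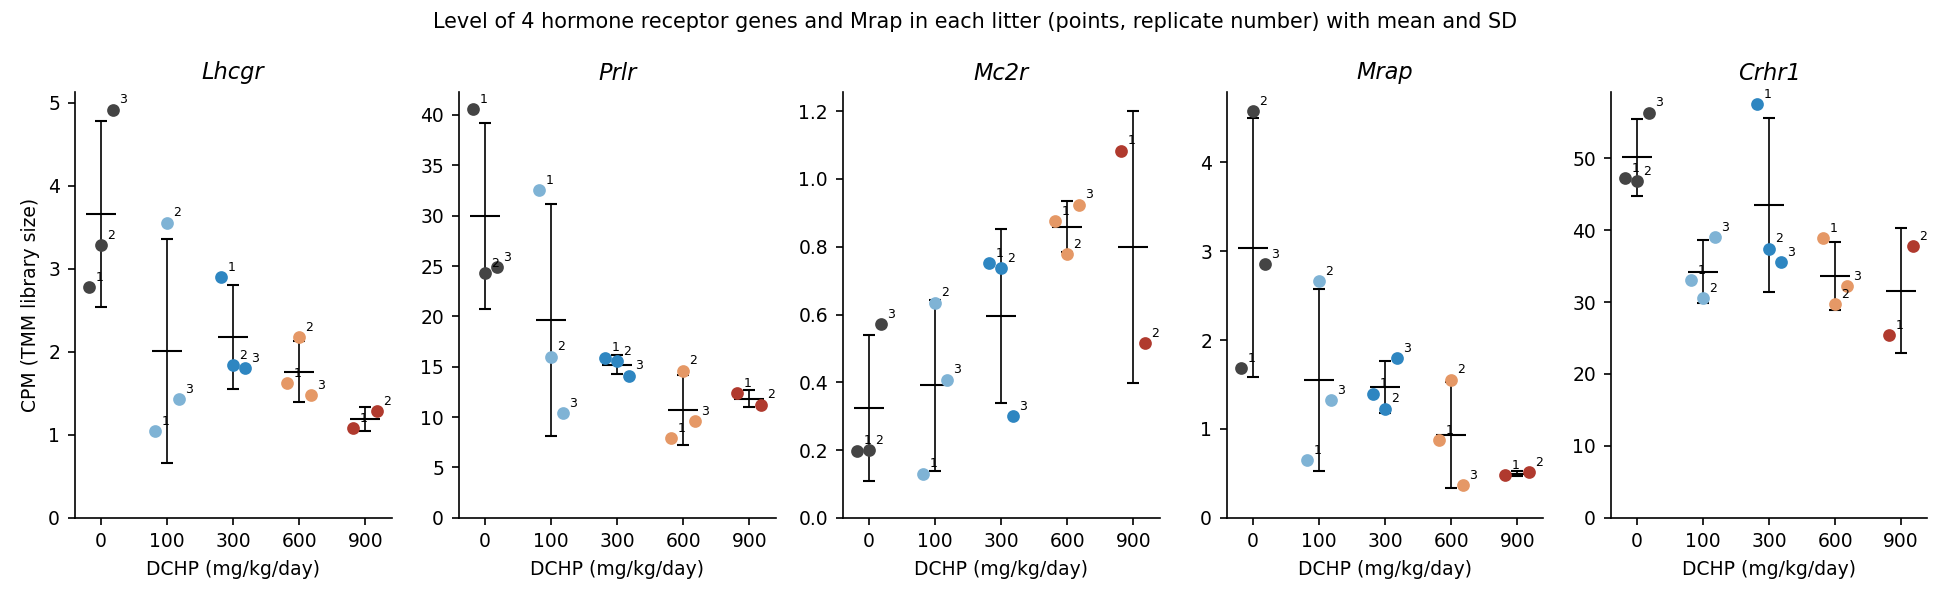
Level of each gene in CPM (vertical axes from 0, a separate scale for each gene) against DCHP dose in mg/kg/day, with 1 point per litter labelled by replicate number, and mean and SD as bars. Lhcgr, Prlr, Mrap and Crhr1 had every litter at 600 and 900 mg/kg/day below the vehicle litters, while Mc2r lay between 0.131 and 1.08 CPM with its 600 mg/kg/day litters above vehicle.

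Each dose was then tested against vehicle in 1 edgeR quasi-likelihood model of all 14 libraries, to ask at which dose the receptor genes differ. The comparisons share the vehicle litters, so their values are not independent of each other. Mc2r was fitted in the same model without the filter on low counts, over 18174 genes. Fold changes are log2 ± standard error, and p-values were adjusted by the Benjamini-Hochberg method over all tested genes.

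None of the 5 genes passed edgeR's test at an adjusted p under 0.05 at any dose, and few genes of the whole table did. At 100, 300, 600 and 900 mg/kg/day 0%, 0.0472%, 0.22% and 0.252% of the 12719 tested genes passed, and 0%, 0.022%, 0.132% and 0.154% in the fit without the filter. At 100 mg/kg/day the estimates were -0.86 ± 0.42 for Lhcgr, -0.61 ± 0.35 for Prlr, -0.97 ± 0.52 for Mrap and -0.55 ± 0.21 for Crhr1. The Mc2r estimate was 0.28 ± 0.75 with an unadjusted p of 0.710, and it changed sign to -0.18 without 100 mg/kg/day replicate 2. Crhr1 alone of the 5 had a negative estimate with an unadjusted p under 0.05 (0.0203), against 1.6% of tested genes, and alone had every dosed litter below all vehicle litters, against 2.99%. The adjusted p of all 5 genes was 1.

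At 300 mg/kg/day Prlr, the prolactin receptor, had -0.98 ± 0.35 with an unadjusted p of 0.0163 and an adjusted p of 1. It was the one of the 5 with a negative estimate at an unadjusted p under 0.05, against 1.76% of tested genes, and the one with every dosed litter below vehicle, against 4.46%. Lhcgr had -0.73 ± 0.41, Mrap -1.05 ± 0.53, Crhr1 -0.20 ± 0.21 and Mc2r 0.87 ± 0.72, with unadjusted p from 0.0677 to 0.346 in edgeR.

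At 600 mg/kg/day Prlr had the smallest p of the 5 genes, with -1.49 ± 0.37, an unadjusted p of 0.00131 and an adjusted p of 0.303 in edgeR. It was lower in 3 of 3 litters. Mrap had -1.67 ± 0.56 (adjusted p = 0.808), Lhcgr -1.04 ± 0.43 (0.950) and Crhr1 -0.58 ± 0.21 (0.831), with unadjusted p of 0.0111, 0.0307 and 0.0163. Of all 5 genes these 4 had every dosed litter below vehicle, a position held by 5.92% of tested genes, and Mc2r had every litter above, as did 6.16% of the 18174 genes without the filter. A negative estimate with an unadjusted p under 0.05 was found for 2.89% of tested genes. The filter keeps a gene that is high in any group, so the count of 4 is a description. The Mc2r estimate was 1.37 ± 0.72 (unadjusted p = 0.0765, adjusted p = 0.905).

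The Prlr call at 600 mg/kg/day depended on the tool and on 1 library. With DESeq2 the value was -1.47 with an adjusted p of 0.0158, where 0.464% of tested genes passed. Leaving out 100 mg/kg/day replicate 1, which is in neither group but enters the shared estimate of spread, gave -1.49 ± 0.26 with an adjusted p of 0.0177 in edgeR, where 0.394% passed. Without both libraries that lay apart, Prlr stood at -1.21 ± 0.22 with an adjusted p of 0.0164 in edgeR, where 0.523% passed. Vehicle replicate 1 had the highest Prlr of all litters, so the estimate became smaller in size, while its standard error fell from 0.37. The libraries were picked from the data, so this value supports no call.

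At 900 mg/kg/day the lowest estimate of the 5 genes was that of Mrap, the receptor accessory protein, at -2.57 ± 0.68 with an adjusted p of 0.282 in edgeR (unadjusted p = 0.00217). Lhcgr, the LH receptor, had -1.60 ± 0.49 (adjusted p = 0.506), Prlr -1.34 ± 0.41 (0.497) and Crhr1 -0.66 ± 0.24 (0.738), and Mc2r had 1.30 ± 0.77 (0.883). Both dosed litters of Lhcgr, Prlr, Mrap and Crhr1 lay below all vehicle litters, which held for 8.83% of tested genes. Each of the 4 had a negative estimate with an unadjusted p under 0.05 in edgeR, as did 2.86%. The filter keeps a gene that is high in any group, and the genes were chosen with earlier results of these data known. These counts of 4 are therefore descriptions. Without both libraries that lay apart, Lhcgr (-1.79, adjusted p = 0.0193), Prlr (-1.09, 0.00855) and Mrap (-2.89, 0.00648) had an adjusted p under 0.05 in edgeR, and Crhr1 had -0.73 (0.0627). In that fit 16.7% of 12608 genes passed. It drops the vehicle litter that lay nearest to the 900 mg/kg/day litters on the first component. That litter had the lowest Lhcgr and Mrap of its group but the highest Prlr. The Prlr estimate accordingly became smaller in size, from -1.34 to -1.09. The libraries were picked from the data, so these values do not support a fall of the 3 genes.

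**Figure D2:**
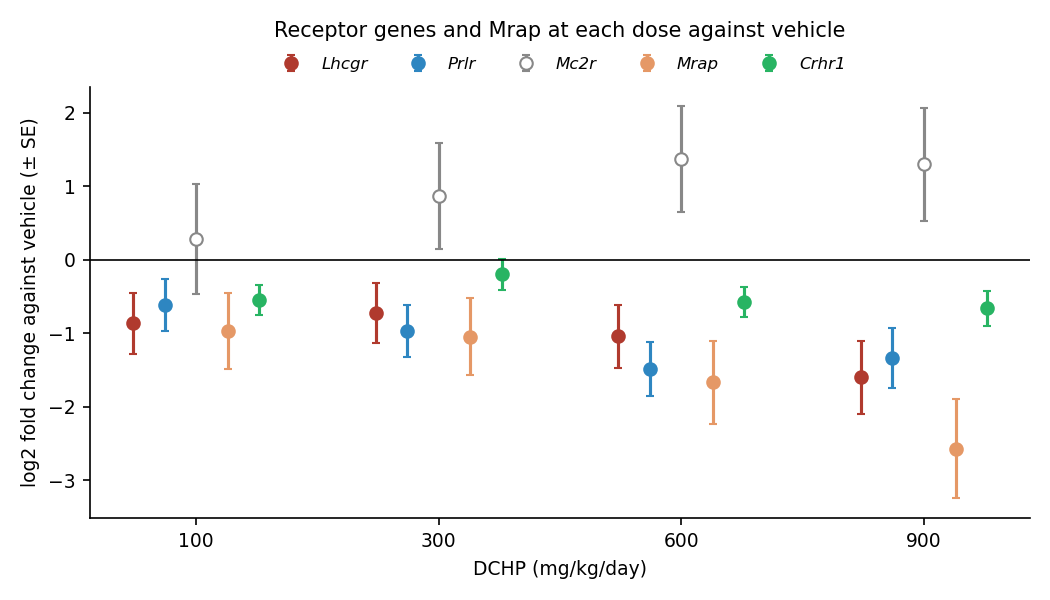
The log2 fold change of each gene against vehicle (vertical axis, edgeR estimate with its standard error as bars) at the 4 doses in mg/kg/day, with Mc2r as open points because it was fitted without the filter on low counts. Mrap ran from -0.97 at 100 to -2.57 at 900 mg/kg/day, and the Mc2r estimates were positive at every dose with bars of 0.72 to 0.77.

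A linear slope over dose used all 14 libraries at once, and is given as log2 per 100 mg/kg/day. Mrap had the steepest slope of the 5, -0.25 ± 0.06 with an adjusted p of 0.0975 in edgeR, and ranked 80 of 12719 genes by p. Prlr had -0.15 ± 0.04 (adjusted p = 0.144), Lhcgr -0.15 ± 0.05 (0.411), Crhr1 -0.058 ± 0.025 (0.844) and Mc2r 0.16 ± 0.07 (1, fitted without the filter). Among slopes of the 5 genes 0 passed, where 0.425% of tested genes did (0.27% without the filter). Mrap, Prlr, Lhcgr and Crhr1 had an unadjusted p under 0.05 in edgeR, as did 5.09%. The genes were chosen with earlier results of these data known, so this too is a description. The Mc2r unadjusted p was 0.0337 at 66 counts over all libraries, and 3.85% of the 18174 genes fitted without the filter lay under 0.05.

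The slope calls again moved with the tool and the libraries. In DESeq2 Prlr (-0.15, adjusted p = 0.0191) and Mrap (-0.26, adjusted p = 0.0180) fell over dose, where 0.936% of tested genes passed. Without 100 mg/kg/day replicate 1 Mrap fell in edgeR (-0.27, adjusted p = 0.0215), where 0.599% passed. Without both libraries that lay apart, Mrap (-0.30, adjusted p = 0.00541), Lhcgr (-0.17, 0.0245) and Prlr (-0.11, 0.0347) had an adjusted p under 0.05, where 11.8% passed. For Lhcgr and Mrap, lowest of their groups in both libraries, this selection builds a trend with dose into the slopes. For Prlr, highest of its groups there, the slope became flatter than the -0.15 of all 14 libraries in edgeR. The libraries were picked from the data, so these slopes support no call. With dose rank in place of dose, Prlr fell by 0.37 per dose step (adjusted p = 0.0486 in edgeR), where 0.629% passed.

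The litters that lay apart differed between the receptor genes. In vehicle replicate 1 and in 100 mg/kg/day replicate 1, Prlr was the highest of its group, at 40.6 and 32.5 CPM, while Lhcgr (2.78 and 1.05 CPM) and Mrap (1.69 and 0.653 CPM) were the lowest of theirs. Crhr1 was between the other litters of its group in both. Across the 14 litters log2 CPM of Lhcgr and Mrap had Pearson r = 0.84 and Spearman rho = 0.85, and r = 0.67 after the mean of each dose group was taken off. Without the 2 litters farthest from the median of Lhcgr, r was 0.82, and without the 2 libraries that lay apart it was 0.835. Lhcgr and Prlr had r = 0.43 and rho = 0.50 and, within groups, r = -0.24. Without the 2 litters farthest from the median of Lhcgr their r was 0.38. It was 0.81 without the 2 libraries that lay apart, in which Prlr was highest and Lhcgr lowest of the group. Prlr and Mrap had r = 0.46, -0.34 within groups and 0.80 without those libraries. Of the 6 pairs among the 4 genes, those with Crhr1 had r between 0.38 and 0.63. These values are descriptions with no p, since litters of a group share a dose and genes of a library share its depth.

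**Figure D3:**
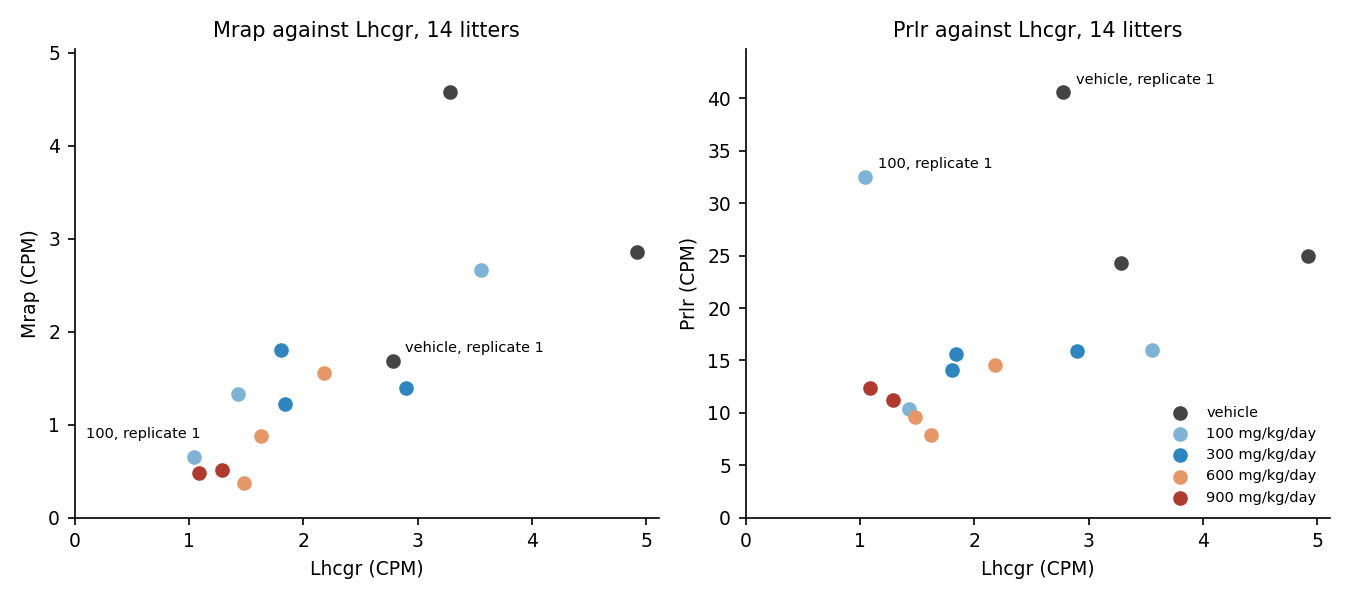
Mrap (left) and Prlr (right) against Lhcgr in CPM, 1 point per litter coloured by dose in mg/kg/day, with the 2 libraries that lay apart named. In the right panel those libraries stand at 40.6 and 32.5 CPM of Prlr, above the other 12 litters, and in the left panel 100 mg/kg/day replicate 1 lies near the 900 mg/kg/day litters, at 1.05 CPM of Lhcgr and 0.653 CPM of Mrap.

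The genes most like each receptor gene were found by Pearson r of log2 CPM over the 14 libraries, among tested genes with a symbol and a mean count of at least 20. For Lhcgr these were Capn6 (0.90), Plppr4 (0.87), Idh1 (0.86), P4ha2 (0.86) and Atn1 (0.86). Capn6, a member of the calpain family, also had r = 0.90 with Lhcgr within dose groups. The other genes of this list had 0.70 to 0.77 there, at ranks from 69 to 265. For Mrap they were Plppr4 (0.93), Gsto1 (0.92), Elovl6 (0.91), Inha (0.90) and Lrrc74b (0.90), so Plppr4 stood in both lists. Elovl6 elongates fatty acids, and Inha encodes the inhibin alpha subunit.

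For Prlr the most alike were Sec14l4 (0.92), Fabp3 (0.91), Gramd1b (0.91), Ephx1 (0.90) and Prdx3 (0.90), none of which was in the lists of Lhcgr or Mrap. Fabp3 carries fatty acids in the cytosol, Gramd1b moves cholesterol between membranes, and Prdx3 is a mitochondrial peroxidase. Within dose groups the r of Gramd1b with Prlr was 0.93, rank 14 of 9417 genes. The other 4 had 0.72 to 0.79 within groups, at ranks from 840 to 1589, and their likeness to Prlr was not among the closest there. Without the 2 libraries that lay apart, where Prlr was far above its groups, the order differed. There the r with Prlr was 0.92 for Fabp3, 0.85 for Sec14l4, 0.80 for Gramd1b, 0.795 for Ephx1 and 0.77 for Prdx3. For the Lhcgr set it ran from 0.83 to 0.90. For Crhr1 the values were lower, with Tcaf1 (0.82), Sdsl (0.78), Actg2 (0.78), Sod2 (0.75) and Reep6 (0.74). Within dose groups these ran from 0.375 for Reep6 (rank 571) to 0.73 for Actg2 (rank 22).

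Genes upstream and downstream of the receptors were taken as lists. Of 11 ligand genes 7 were in the table. Lhb and Cga, which encode the beta subunit of luteinising hormone and the shared alpha subunit, had means of 9.57 and 7.43 counts per library and slopes of -0.05 ± 0.06 and -0.08 ± 0.09. Fshb, Prl, Prl3b1, Ucn2 and Ucn3 had mean counts of 0.714, 2.07, 1, 1.93 and 2 and were not tested, and Prl3d1, Pomc, Crh and Ucn were not analysed here. No ligand gene passed at any dose.

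Related receptors and partners did not pass either. Of 10 listed, 3 were tested, with slopes of -0.01 ± 0.03 for Ghr, the growth hormone receptor, -0.16 ± 0.09 for Mc5r and 0.10 ± 0.07 for Crhr2. Mrap2, the other accessory protein of melanocortin receptors, had a mean of 5.57 counts and was not tested. Of 17 other receptors through which Leydig cells or their neighbours are known to be addressed, 11 were tested and 0 passed at any dose or over dose. Their median slope was 0.02 against 6.381e-05 over all tested genes. The smallest p-values among them were those of Npr1, the natriuretic peptide receptor, with a slope of 0.03 ± 0.02, Esr1 with -0.03 ± 0.02 and Igf1r with 0.03 ± 0.02.

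The signalling steps behind the receptors were likewise without a call. Of 29 listed genes of the cAMP and protein kinase A pathway 21 were tested, with a median slope of -0.008 and 0 passing at any dose or over dose. Prkar2b, a regulatory subunit of the kinase, had -0.05 ± 0.01 (adjusted p = 0.351 in edgeR), Pde4b, a cAMP phosphodiesterase, 0.10 ± 0.03 (0.496), and Adcy9, an adenylate cyclase, -0.06 ± 0.03 (1). Gnas, the Gs alpha subunit, had a mean of 7 counts and was not tested. Of 11 genes of receptor desensitisation and traffic 8 were tested and 0 passed, with a median of -0.006. The smallest p values there belonged to Mvk, a mevalonate kinase that also binds the LH receptor mRNA, at -0.06 ± 0.03 (unadjusted p = 0.0973 in edgeR), to Grk3 and to Arrb1. Of 14 JAK and STAT genes 12 were tested and 0 passed, with a median of 0.01, and Ptpn6 had -0.06 ± 0.03, Irs2 0.04 ± 0.02 and Socs2, a feedback inhibitor of cytokine receptors, 0.03 ± 0.02.

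Most tested genes that cAMP is known to raise in Leydig cells fell. Of 14 listed, 9 were tested, and 0, 3, 5 and 6 fell at 100, 300, 600 and 900 mg/kg/day while 0 rose, where 0%, 0.0472%, 0.22% and 0.252% of all tested genes passed. Over dose 7 of the 9 fell, where 0.425% passed, and the median slope was -0.23. Single libraries ended the calls at 300 mg/kg/day: 0 genes of the list passed without any 1 of the 3 litters of that dose, without vehicle replicate 1 or 3, or without 600 mg/kg/day replicate 1 or 2, and 1 without vehicle replicate 2. At 900 mg/kg/day 0 passed without replicate 1 of that dose and 2 without replicate 2, while 3 to 6 passed at 600 mg/kg/day and 6 or 7 over dose whichever library was left out. At 600 mg/kg/day the count was 3 when any 300 mg/kg/day litter was left out, or replicate 2 or 3 of vehicle or of 600 mg/kg/day, or replicate 3 of 100 mg/kg/day. The list had been chosen with earlier results of these data known, so its direction is no independent evidence. Cyp17a1, the enzyme that makes androgens from progestins, fell over dose with a slope of -0.37 ± 0.04 (adjusted p = 0.00076 in edgeR), and Star, the mitochondrial cholesterol transporter, with -0.28 ± 0.04 (0.00418). Fdx1, Scarb1 and Cyp11a1 fell with slopes of -0.28, -0.24 and -0.23, Insl3 with -0.20 (adjusted p = 0.0466) and Inha with -0.12. Nr4a2 and Sik1, immediate targets of the cAMP signal, had slopes of 0.01 ± 0.03 and -0.05 ± 0.06. The slopes of Lhcgr and Prlr lay between those of Inha and Insl3, and that of Mrap between those of Scarb1 and Fdx1, with no test of these differences.

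In pooled tissue fewer cells of a type and less RNA per cell cannot be told apart. All 6 fetal Leydig markers were in the table, and their summed level was 3709 to 7802 CPM in vehicle and 1081 to 1333 CPM at 900 mg/kg/day. The mean sum was 60.6%, 51.7%, 39.7% and 22.1% of vehicle at 100, 300, 600 and 900 mg/kg/day, beside 54.9%, 59.6%, 48.1% and 32.4% for Lhcgr and 50.9%, 48.5%, 30.7% and 16.4% for Mrap. Prlr stood at 65.6%, 50.8%, 35.7% and 39.5%, and Crhr1 at 68.3%, 86.8%, 67.0% and 63.0%. The part of the Leydig cell markers in the receptor values was not tested. Most of the sum was Insl3, with a mean of 19510 counts per library, and the markers did not move alike. Nr5a1, a transcription factor of steroid-making cells, had a slope of -0.03 ± 0.02 and a log2 fold change of -0.29 ± 0.23 at 900 mg/kg/day, neither of which passed, while Hsd3b1, a steroid dehydrogenase, fell with -0.14 ± 0.03 (adjusted p = 0.0433 in edgeR) at a mean of 22.9 counts. Over dose 5 of the 6 markers fell. Of these markers Star, Insl3, Cyp11a1 and Cyp17a1 are also among the genes raised by cAMP.

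Markers of other cells were summed in the same way. Of 5 adipocyte markers, a cell type that also uses Mrap and Mc2r, 4 were in the table, and their sum was 2.68 to 7.37 CPM in vehicle, 8.62 to 12.24 CPM at 100, 8.72 to 10.4 CPM at 300, 5.75 to 12.1 CPM at 600 and 5.15 to 7.95 CPM at 900 mg/kg/day. Every litter at 100 and 300 mg/kg/day lay above every vehicle litter in this sum. Most of it was Adipoq, and Plin1 had a count in 8 of 14 libraries. The 3 adrenal medulla markers in the table summed to 5.48 to 6.45 CPM in vehicle and 3.44 to 7.34 CPM in the dosed litters, and the listed adrenal cortex markers were not analysed here. Summed Sertoli markers were 464 to 606 CPM in vehicle and 509 to 589 CPM at 900 mg/kg/day, and germ cell markers 793 to 969 and 948 to 966 CPM. The 4 peritubular markers, mostly Acta2 and Tagln, summed to 264 to 296 CPM in vehicle, and every litter at 300 (312 to 356 CPM) and 600 mg/kg/day (321 to 392 CPM) lay above that. At 900 mg/kg/day they summed to 294 to 407 CPM. The 4 macrophage markers were at 4.57 to 6.17 CPM in vehicle. At 100 and 300 mg/kg/day their ranges, 5.36 to 7.85 and 5.89 to 9.885 CPM, overlapped that of vehicle. They were at 7.38 to 9.62 CPM at 600 and 6.27 to 6.51 CPM at 900 mg/kg/day, above every vehicle litter. Among single genes, 6.16% of all 18174 had every 600 mg/kg/day litter above every vehicle litter. Such a share was not computed for the other doses or for sums of genes. The positions of the sums above vehicle are therefore descriptions, and no change in any cell type is read from them. The 3 liver markers in the table, mostly Afp, were at 0.995 to 6.45 CPM in vehicle and 7.49 to 12.03 CPM at 100 mg/kg/day, the dose at which all 3 litters lay above vehicle. Endothelial markers were at 267 to 311 CPM in vehicle and 270 to 312 CPM in the dosed litters, and those of the mesonephros at 6.45 to 9.56 and 5.03 to 9.59 CPM. No tested gene of these lists passed at any dose. The part of any of these cells in the receptor values was not tested.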

How the data were processed

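The authors deposited estimated counts for each Ensembl gene and library, and these were rounded before testing (83.6% of the values were whole to a tolerance of 1e-09). Per the submitters' processing notes, STAR 2.7.8a, Partek, DESeq2 and the rat build rn7 were used, and which tool made which table is not given in the sources used here. A deposited table of log2 CPM of 11624 genes, made by the authors from attenuation-adjusted counts, holds 4 of the 5 genes and was not tested. The table of attenuation-adjusted counts differs for 16 genes, none of them a receptor gene here.

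The filter on low counts (filterByExpr on dose groups) kept 12719 genes with 99.9% of counts. Libraries were TMM-scaled, and 1 quasi-likelihood model (edgeR 4.0.16, R 4.3.3) with 5 dose groups and 9 residual degrees of freedom was fitted. The slope over dose came from its own fit of linear dose. Mc2r, which failed the filter, was fitted without it. The standard error is the log2 fold change divided by the square root of F. Tests are two-sided, and p-values were adjusted over all tested genes. Each library differed from others of its group by more than sampling noise, with a chi-square of 6.34 to 80.2 per degree of freedom. The methods were first tested on simulated data, in which only genes with a mean count of at least 20 were changed. Lhcgr, Mrap and Mc2r lie under that count.

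The receptor genes and the lists were chosen with earlier results of these data known. All 5 receptor genes are named, with the ligands, pathway list genes that passed, up to 3 others per list by trend p, and the 5 genes most like each tested receptor gene. Alternatives were DESeq2 1.42.0, other scalings and filters, unrounded and attenuation-adjusted counts, other sample sets and dose rank. Replicates are numbered in label order.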

Additional observations from a re-analysis of the deposited data

How the results depend on the processing

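No paired analysis was run, since each library is a litter of its own and the labels give no pairing and no batch. The estimates of Lhcgr, Prlr, Mrap and Crhr1 kept their negative sign in every alternative run, and the sign of Mc2r turned at 100 mg/kg/day without replicate 2 of that dose (-0.18). Leaving out each library in turn gave -0.18 to 0.92 for Mc2r at 100 mg/kg/day, -1.78 to -1.20 for Prlr at 600 mg/kg/day and -0.28 to -0.21 for the Mrap slope. With DESeq2 the values that came to pass were Prlr at 600 mg/kg/day (-1.47) and the slopes of Prlr (-0.153) and Mrap (-0.258). With dose rank in place of dose, Prlr passed at -0.37 per dose step (adjusted p = 0.0486 in edgeR). Without 100 mg/kg/day replicate 1, Prlr at 600 mg/kg/day (-1.49) and the Mrap slope (-0.271) passed. Without that library and vehicle replicate 1, Prlr at 600 mg/kg/day (-1.21), Lhcgr (-1.79), Prlr (-1.09) and Mrap (-2.89) at 900 mg/kg/day, and the slopes of Lhcgr (-0.172), Prlr (-0.105) and Mrap (-0.295) passed. Those 2 libraries were chosen for lying toward the 900 mg/kg/day litters, which favours such calls over the tested genes as a whole. The Prlr estimates at 600 and 900 mg/kg/day and the Prlr slope became smaller in size without them. Genes passing over the whole table numbered 0, 6, 28 and 32 from 100 to 900 mg/kg/day (433 at an unadjusted p under 0.05 at 100 mg/kg/day in edgeR) and 54 for the slope, and 2, 27, 59, 91 and 119 with DESeq2. Without both libraries they numbered 39, 66 and 2102 at the 3 upper doses and 1494 for the slope. They numbered 15 at 600 mg/kg/day in edgeR with RLE (relative log expression) size factors in place of TMM. With only the libraries compared they numbered 8 and 4 at 600 and 900 mg/kg/day. Leaving out each library gave 0 to 9, 6 to 50 and 0 to 50 genes at the 3 upper doses and 30 to 76 for the slope, and moved the count by over 1.5 times in 9, 10, 4 and 3 of the 14 fits. At 900 mg/kg/day these were 0 and 9 genes without replicate 1 or 2 of that dose, 15 without vehicle replicate 3 and 50 without 100 mg/kg/day replicate 1. A group left with 1 library was assumed to vary like the others. Lhcgr, Mrap and Mc2r have no value under a mean count of at least 20. Low counts limit Mc2r, Mrap and Lhcgr.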
